A study of Homo sapiens with 10 samples.

Results

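HERV-H is a family of endogenous retroviruses, copies of an ancient infection that now lie at many places in the human genome. The repeat rows counted for it were HERVH-int and HERVH48-int, which collect reads from the internal regions of HERV-H and of a related family, and LTR7, LTR7A, LTR7B, LTR7C and LTR7Y, which collect reads from the long terminal repeats that flank HERV-H. They were chosen by these names and make up 7 of the 1187 repeat rows, and of 59238 rows in all, in each of the deposited count tables. The cells were HAP1, a near-haploid human line derived from the leukaemia line KBM-7, either wild type or knocked out for RBM4, an RNA-binding protein that acts in splicing and translation. Wild type (n = 3), RBM4 knockout clone 1 (n = 3) and RBM4 knockout clone 2 (n = 2) were sequenced paired-end, and a wild type and a knockout library were sequenced single-end. The title of the series states its aim as finding genes expressed differently between wild type and knockout cells. Each clone is a single line, so loss of RBM4 and other differences of that line cannot be told apart within a clone, and the labels do not name the clone of the single-end knockout.

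In a HERV-H provirus the left LTR acts as the promoter and the right LTR gives the polyadenylation signal, and transcripts run from the left LTR into the internal region. LTR7, LTR7B, LTR7C and LTR7Y are subfamilies of the LTR that differ in sequence. In human pluripotent stem cells HERV-H is transcribed at a high level from LTR7 and LTR7Y copies, under factors such as OCT4 (POU5F1), NANOG, KLF4 and TFCP2L1. Its RNA is found there in long noncoding RNAs, among them ESRG, LINC-ROR and LINC00458. A repeat row sums reads over all copies of a subfamily, so the rows say nothing about which copies were transcribed.

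Total counts ran from 33192095 to 55617525 in the 8 paired-end libraries. Repeats took 3.564% to 5.374% of them, with overlap between wild type and knockout. RBM4, the targeted gene, stood at 79.85, 79.76 and 78.68 CPM (counts scaled to library size with TMM factors) in wild type libraries, 22.33, 22.92 and 24.48 CPM in those of clone 1 and 25.28 and 25.80 CPM in those of clone 2. Its level fell, with a log2 fold change of -1.70 in the mean of the clones (edgeR quasi-likelihood test with Benjamini-Hochberg adjustment, adjusted p = 1.11e-10). In the single-end pair RBM4 stood at 83.28 CPM in wild type and 25.66 CPM in the knockout. For that pair CPM is counts over the library total, without TMM factors. For each library, the deviation of each gene's log2 CPM from its mean over the 8 libraries was correlated with GC content across genes. This Spearman correlation was -0.41 to -0.25 in the wild type libraries and -0.05 to 0.39 in the knockout libraries. The GC trend of a library relative to the others thus moved with genotype, and the values do not describe level itself. A fit with this correlation as a covariate was among the alternatives for each log2 fold change. The genotypes did not overlap in the correlation, which comes from these same levels, so that fit cannot separate GC trend from genotype. It called 607 features in the mean of the clones, against 3725 without the covariate. In the column names of the deposited table, sample numbers 1 to 5 belong to wild type and to replicate 1 of each clone, and numbers 11 to 13 to the other knockout libraries. What these numbers stand for is not stated, and in bulk RNA more RNA per cell and more cells that make it cannot be told apart. Of the 8 markers of haematopoietic cells, the lineage of KBM-7, only KIT and RUNX1 passed the filter, and PTPRC, CD34, SPI1, GATA1, MPO and CD33 had 0 to 8 counts per paired-end library. Of the 10 markers of pluripotent stem cells, POU5F1, SOX2, DPPA4, DNMT3B and TDGF1 passed it, and NANOG, PRDM14, ZFP42, LIN28A and L1TD1 had 0 to 10 counts per paired-end library. In the single-end pair LIN28A had 149 counts in wild type and 267 in the knockout.

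Counts of 4 HERV-H and LTR7 rows, scaled to library size, were higher in both RBM4 knockout clones. The internal region HERVH-int rose 1.498-fold and LTR7Y 1.967-fold in the mean of the clones, with LTR7 and LTR7B rising less. Of the 7 rows, 6 passed the filter, 4 of them were called higher (adjusted p below 0.05) and 0 lower, against 9.87% of all 20747 features and 1.79% of the 1064 tested repeat rows called higher, and 8.09% and 0.752% called lower. The same 4 rows were called higher in clone 1 (9.37% of features and 1.03% of repeat rows) and in clone 2 (6.18% and 1.69%). LTR7C, HERVH48-int and LTR7A were not called, the last because it did not pass the filter. Both clones were compared with the same 3 wild type libraries, so these are not independent comparisons. With scaling on the repeat rows alone, 1 row was called higher in the mean of the clones, 2 in clone 1 and 0 in clone 2.

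**Figure D1:**
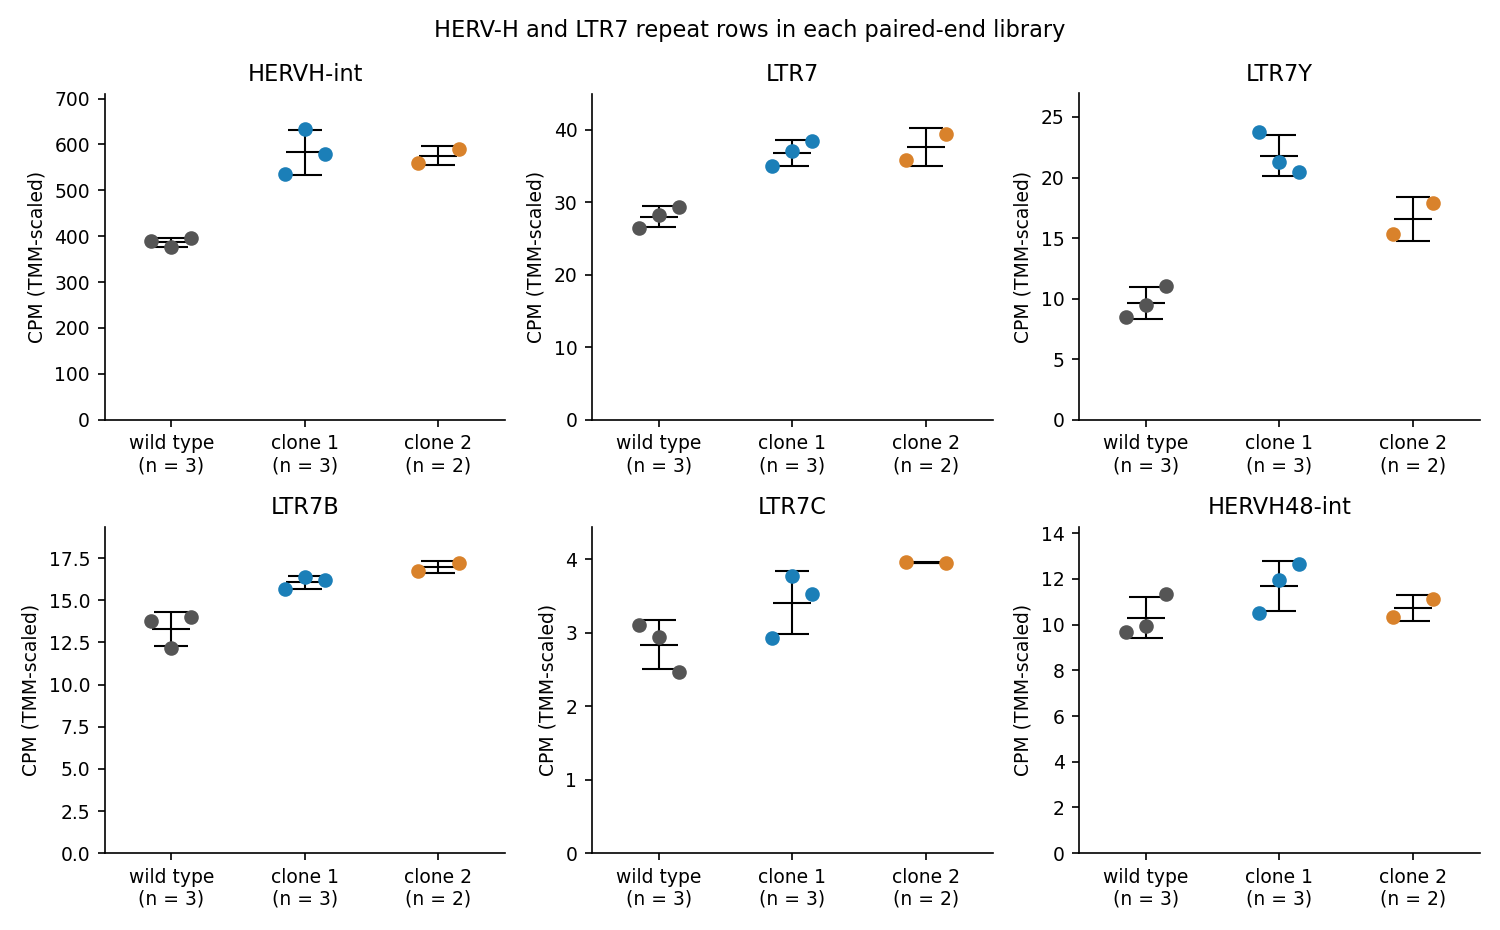
Level of each tested HERV-H and LTR7 row in the 8 paired-end libraries, as TMM-scaled CPM on axes that start at 0; each point is a library, the central line is the mean and the bars are ± SD. For HERVH-int, LTR7, LTR7Y and LTR7B every knockout library lies above every wild type library, and for LTR7C and HERVH48-int the groups overlap.

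HERVH-int, the internal region with the former gag, pol and env genes, held 13157 to 35105 counts per library. It stood at 388.5, 375.5 and 395.5 CPM in wild type libraries, 535.5, 633.6 and 578.6 CPM in those of clone 1 and 560.6 and 589.8 CPM in those of clone 2. The lowest knockout library lay well above the highest wild type library, and the clones overlapped each other. Means were 386.5 ± 10.16 CPM (SD, n = 3) in wild type, 582.5 ± 49.18 CPM (n = 3) in clone 1 and 575.2 ± 20.61 CPM (n = 2) in clone 2. Against wild type the log2 fold change was 0.58 in the mean of the clones (SE 0.0579, adjusted p = 1.33e-05), 0.59 in clone 1 (adjusted p = 3.81e-05) and 0.57 in clone 2 (adjusted p = 0.000112). No difference between the clones was called (log2 fold change of clone 2 against clone 1 -0.02, SE 0.0705, adjusted p = 0.979), in a comparison in which 2.09% of all features were called in either direction. By level HERVH-int ranked 20 among the 1187 repeat rows, and by its log2 fold change 15 among the 1064 tested.

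With libraries of sample numbers 1 to 5 alone, the log2 fold change of HERVH-int was 0.50. This selection holds 1 library of each clone, so its fit takes its spread from wild type alone, and only effect sizes are given. With a term for the number the log2 fold change was 0.50 (adjusted p = 1.63e-05). As numbers 11 to 13 are all knockout, the term is not a separate check from numbers 1 to 5 alone. With the GC correlation of each library as a covariate, HERVH-int was at 0.72 (adjusted p = 0.00262). Scaling on the repeat rows alone ended the call in the mean of the clones (0.64, adjusted p = 0.0842) and in clone 2 (0.49, adjusted p = 0.713), and kept it in clone 1 (0.79, adjusted p = 0.0294). Under that scaling 872 features were called in the mean of the clones, 639 of them higher, against 3725 and 2047 under the scaling on genes and repeats together, and the median of all features in clone 1 moved from -0.0018 to 0.20.

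LTR7, the subfamily that gives the group its name, stood at 26.52, 28.25 and 29.34 CPM in wild type libraries, 34.96, 37.05 and 38.43 CPM in those of clone 1 and 35.82 and 39.48 CPM in those of clone 2. Wild type and knockout libraries did not overlap, and the clones did. Its log2 fold change reached 0.41 in the mean of the clones (SE 0.0595, adjusted p = 0.000378), 0.39 in clone 1 (adjusted p = 0.00129) and 0.43 in clone 2 (adjusted p = 0.00167). Scaling on repeat rows alone ended all 3 calls (adjusted p of 0.279, 0.120 and 1.00), and the GC covariate ended that in clone 1 (0.43, adjusted p = 0.0870). In the mean of the clones the covariate left LTR7 at the edge of the threshold (0.45, adjusted p = 0.0497).

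LTR7Y stood at 8.453, 9.475 and 11.08 CPM in wild type libraries, 23.72, 21.24 and 20.46 CPM in those of clone 1 and 15.30 and 17.89 CPM in those of clone 2. The 3 groups did not overlap, with wild type lowest and clone 1 highest. Its log2 fold change of 0.98 in the mean of the clones (SE 0.0975, adjusted p = 1.44e-05) ranked 3 among the tested repeat rows. LTR7Y rose by 1.17 in clone 1 (SE 0.105, adjusted p = 8.43e-06) and by 0.78 in clone 2 (SE 0.116, adjusted p = 0.00062). The difference between the clones did not pass the test over all features (-0.39, SE 0.114, adjusted p = 0.146), but it was called with no filter on low counts (-0.40, adjusted p = 0.005). With numbers 1 to 5 alone the log2 fold change of the mean of the clones was 0.97, and with the GC covariate it was 1.02 (adjusted p = 0.0149). Scaling on repeat rows alone ended the call in clone 2 (0.68, adjusted p = 0.158).

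LTR7B moved less. It stood at 13.77, 12.16 and 13.99 CPM in wild type libraries, 15.65, 16.39 and 16.21 CPM in those of clone 1 and 16.74 and 17.23 CPM in those of clone 2. All knockout libraries lay above all wild type libraries, and those of clone 2 above those of clone 1. LTR7B changed by 0.31 on the log2 scale in the mean of the clones (SE 0.0707, adjusted p = 0.00812), 0.27 in clone 1 (adjusted p = 0.0303) and 0.35 in clone 2 (adjusted p = 0.0182). This was the least stable of the 4 calls: without wild type replicate 2 it was lost in the mean of the clones (0.24, adjusted p = 0.0738), as it was with the GC covariate (0.35, adjusted p = 0.209) and with scaling on repeat rows alone (0.37, adjusted p = 0.524).

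LTR7C had 97 to 209 counts per library and stood at 3.110, 2.939 and 2.473 CPM in wild type libraries, 2.931, 3.772 and 3.529 CPM in those of clone 1 and 3.961 and 3.953 CPM in those of clone 2. Both clone 2 libraries lay above wild type, and 1 clone 1 library lay within the wild type range. Its log2 fold change of 0.38 (SE 0.130, adjusted p = 0.0616) did not pass the test, but was called without clone 1 replicate 1 (0.41, adjusted p = 0.0304), as it was then in clone 2 (0.47, adjusted p = 0.0477). HERVH48-int, the internal region of a related family, stood at 9.664, 9.931 and 11.32 CPM in wild type libraries, 10.51, 11.95 and 12.66 CPM in those of clone 1 and 10.32 and 11.11 CPM in those of clone 2, with overlap in both clones. The log2 fold change, 0.12, was not called (SE 0.0885, adjusted p = 0.384). LTR7A had 0 to 4 counts per library, too few to compare.

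**Figure D2:**
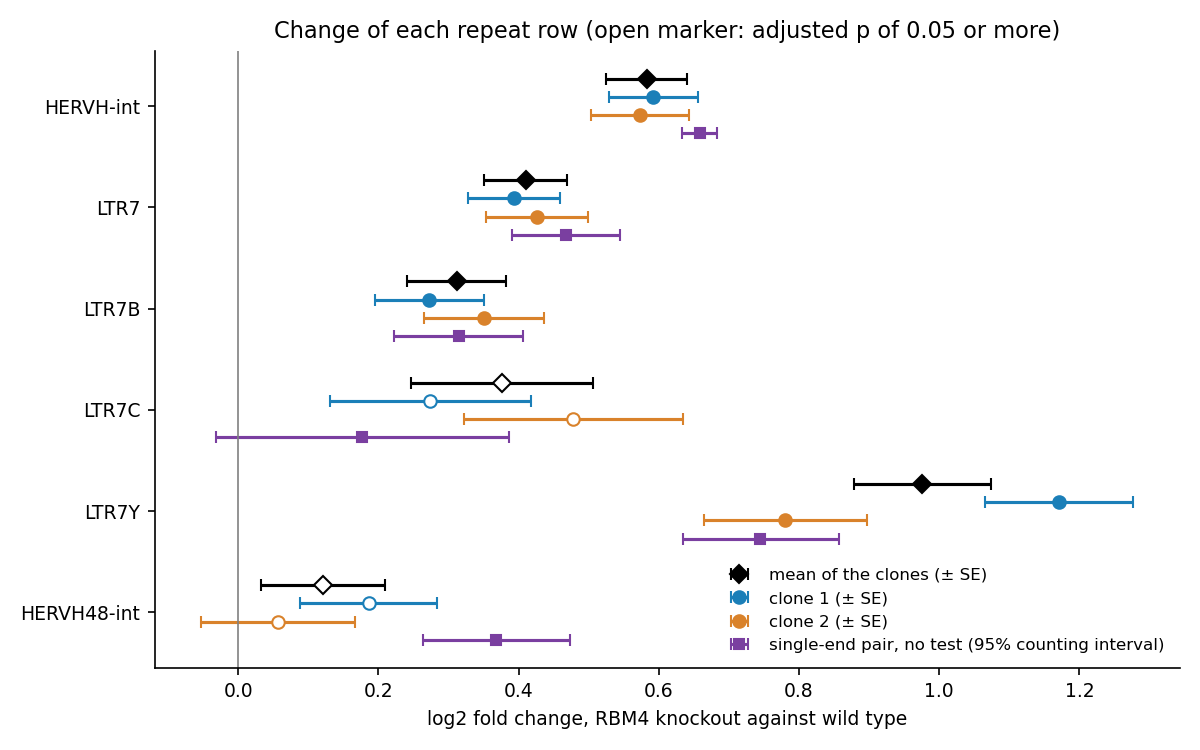
Log2 fold change of each tested row, RBM4 knockout against wild type, for the mean of the clones and each clone (points ± SE, filled where the adjusted p is below 0.05) and for the single-end pair (squares with a 95% counting interval, no test). HERVH-int, LTR7, LTR7B and LTR7Y are called in both clones, and LTR7Y lies farthest from 0 at 0.98 in the mean of the clones.

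The rows HERVH-int, LTR7, LTR7B and LTR7Y had every knockout library above every wild type library, as did 13.5% of all features and 2.16% of the tested repeat rows. LTR7C had 4 of 5 knockout libraries above wild type and HERVH48-int 2 of 5. Over the 6 tested rows the median log2 fold change was 0.39, beside -0.06 over all tested repeat rows and 0.002 over all features. The median of the repeat rows was -0.18 in clone 1 and 0.06 in clone 2. In the mean of the clones it ran from -0.196 (without wild type replicate 3) to 0.01 (without wild type replicate 2) with a library left out, and was -0.23 with the sample-number term and -0.25 with numbers 1 to 5 alone. The rows most like HERV-H in origin did not share this median. Over the 280 other tested rows of the family ERV1, to which HERV-H belongs, it was 0.02. Of these rows, 11 were called higher (3.93%) and 3 lower (1.07%). The shares were 1.79% and 0.752% over the tested repeat rows and 9.87% and 8.09% over all features. Of the 11, MER83B (1.53), MER66-int (0.83), MER41G (0.75) and PABL_A-int (0.67) rose more than HERVH-int (0.58), and the rest rose less. Over the 39 rows of the family ERVK the median was 0.04, with 1 called higher (2.56%) and 1 lower (2.56%). No test was made of the difference between these groups of rows. The ERVK row called higher was LTR5_Hs, the LTR of the youngest HERV-K copies, at 0.40 (SE 0.0663, adjusted p = 0.00115), or 0.46 and not called with scaling on repeat rows alone (adjusted p = 0.296). HERVK-int, the matching internal region, was at 0.57 (SE 0.170, adjusted p = 0.0578), a value called under 8 of 22 alternatives and reduced to 0.23 with numbers 1 to 5 alone. L1HS, the active human LINE-1, was at -0.04 (adjusted p = 0.854), a value that changed sign under scaling on repeat rows alone (0.03) and without wild type replicate 2 (0.06).

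**Figure D3:**
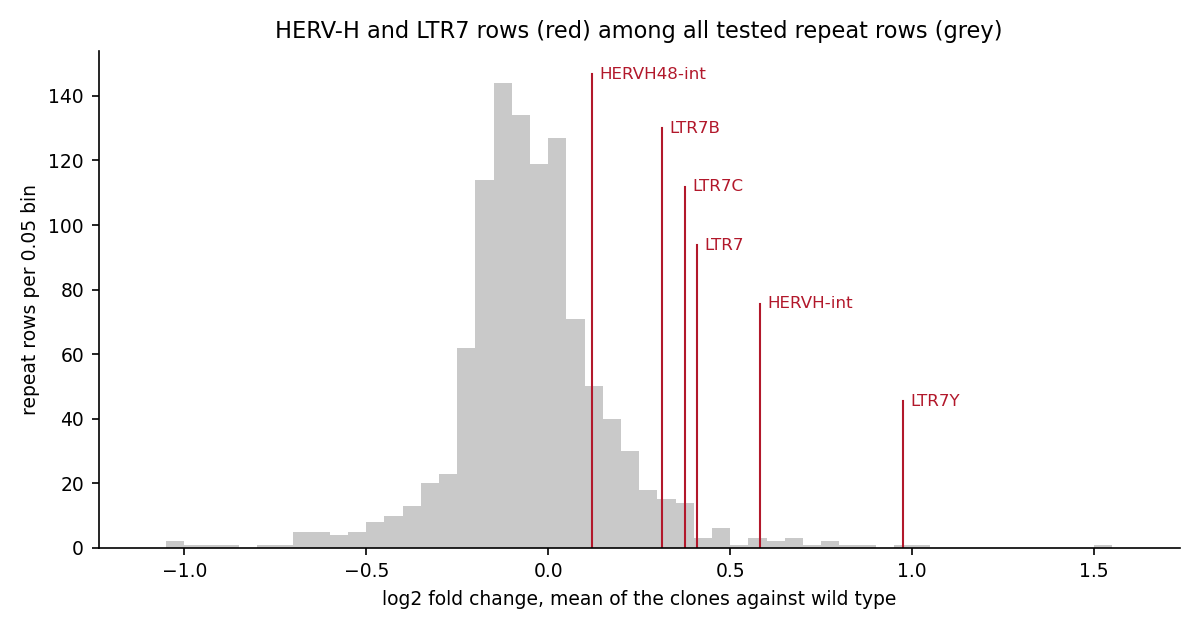
Log2 fold changes (mean of the clones) of the 1064 tested repeat rows, as a histogram with bins of 0.05 (grey), with red lines for the 6 tested HERV-H and LTR7 rows; line height carries no value. The red lines all lie to the right of the median of the repeat rows (-0.06), from HERVH48-int at 0.12 to LTR7Y at 0.98.

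Measures taken within a library do not depend on how libraries are scaled. As a percent of all repeat counts, the 7 rows took 0.904%, 0.827% and 1.163% for wild type, 1.744%, 1.783% and 1.269% for clone 1 and 1.341% and 1.330% for clone 2. Every knockout library exceeded every wild type library, by a mean of 0.529 percentage points (two-sided exact permutation test, p = 0.0179, the smallest that 56 splits allow). The test treats libraries as separate samples, though those of each group come from a single line. Leaving out a wild type or a clone 2 library gave p between 0.0571 and 0.0952, from fewer splits, which allow no p as small as 0.0179. As a percent of ERV1 counts they took 21.54 ± 2.454 (SD, n = 3) in wild type, 29.93 ± 2.621 (n = 3) in clone 1 and 26.78 ± 0.488 (n = 2) in clone 2, again without overlap (exact permutation p = 0.0179). Among libraries of sample numbers 1 to 5, the share of repeat counts was 0.827% to 1.163% for wild type, 1.744% for clone 1 and 1.341% for clone 2.

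The proportion of the internal region to the LTRs was compared in the same way. HERVH-int had 7.492, 7.093 and 6.944 counts for each count of the LTR7 rows for wild type, 6.931, 8.072 and 7.358 for clone 1 and 7.801 and 7.505 for clone 2. The groups overlapped, and the mean log2 ratio differed by 0.07 (two-sided exact permutation test, p = 0.286). Against the row LTR7 alone, the log2 ratio was higher by 0.18 in the knockout libraries, without overlap (exact permutation p = 0.0179, the smallest possible).

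Within the LTR7 rows, LTR7Y took a larger share in the knockouts. It made up 16.30%, 17.90% and 19.46% of their counts in wild type (1855 to 2349 counts), 30.70%, 27.06% and 26.02% in clone 1 and 21.29% and 22.77% in clone 2 (2557 to 4349 counts over both clones). The groups did not overlap, and clone 1 lay above clone 2. The knockout mean exceeded that of wild type by 7.68 percentage points (two-sided exact permutation test, p = 0.0357). The test treats knockout libraries as separate samples, though each clone is a single line and the clones were apart. The LTR7Y share was chosen as a measure after the values were seen. The narrowest gap was between wild type replicate 3, at 19.46% (exact 95% interval for counting error 17.87 to 21.11), and clone 2 replicate 1, at 21.29% (19.81 to 22.82), whose intervals overlap. Leaving out a library other than wild type replicate 3 gave p between 0.0571 and 0.0952, with differences of 6.40 to 8.75 percentage points. Fewer splits remain with a library left out, so the smallest possible p is larger.

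**Figure D4:**
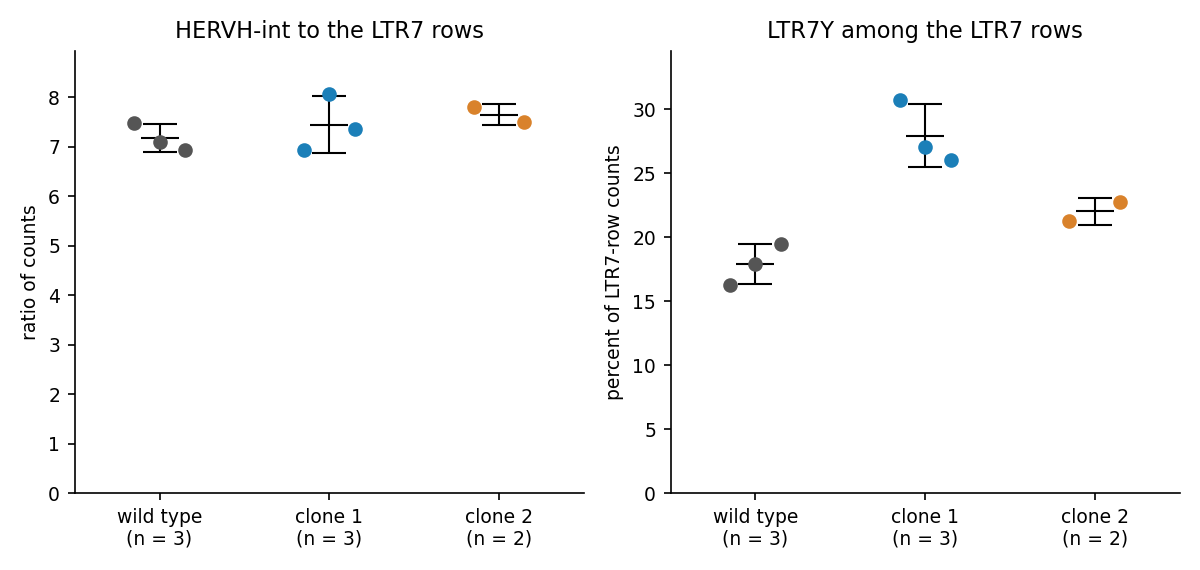
Left, counts of HERVH-int divided by the summed counts of the LTR7 rows; right, LTR7Y as a percent of the counts of the LTR7 rows; each point is a paired-end library, with the mean and ± SD per group, on axes that start at 0. The ratio overlaps between groups, and the LTR7Y share is 16.30% to 19.46% in wild type and 21.29% to 30.70% in the knockouts.

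The single-end pair, 1 library of each genotype, gave ratios in the same direction for 6 of the rows and has no replicates, so no test. In some genes its wild type library differed from the paired-end wild type libraries. LIN28A had 149 counts in it against 0 in each of those, ABHD12B 93 against 0 to 2, and ESRG 13 against 96 to 130. The cause was not tested. HERVH-int had 22606 counts (512.1 CPM) in wild type and 33348 (808.1 CPM) in the knockout, a ratio of 1.58 (95% interval 1.551 to 1.605, counting error only). The ratio was 1.68 for LTR7Y (1.55 to 1.81), 1.38 for LTR7 (1.31 to 1.46) and 1.24 for LTR7B (1.167 to 1.325). It was 1.29 for HERVH48-int (1.20 to 1.39) and 1.13 for LTR7C, with an interval that includes 1 (0.978 to 1.31). All repeats together also took more of the knockout library, 10.38% against 8.512%. Relative to all repeat counts, the ratio was 1.29 for HERVH-int (1.27 to 1.32), 1.375 for LTR7Y (1.273 to 1.485) and 1.13 for LTR7 (1.076 to 1.20). For LTR7B it was 1.02 (0.957 to 1.09), for LTR7C 0.927 (0.802 to 1.07) and for HERVH48-int 1.06 (0.985 to 1.14), all with intervals that include 1. LTR7Y made up 18.96% of the counts of the LTR7 rows in wild type (exact 95% interval 17.95 to 20.01) and 23.07% in the knockout (22.11 to 24.05), and LTR7A had 2 and 1 counts. HERVH-int had 3.966 counts for each count of the LTR7 rows in the wild type library and 4.541 in the knockout.

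ESRG, LINC00458 and LINC-ROR, long noncoding RNAs that hold HERV-H sequence, were among the HERV-H derived transcripts followed as single genes. In GRCh38 ESRG lies on chromosome 3 (54632122 to 54639857, minus strand), LINC00458 on chromosome 13 (54115783 to 54132866, minus strand) and LINC-ROR on chromosome 18 (57054558 to 57072119, minus strand). GENCODE classes ESRG as a sense intronic RNA and the others as long intergenic RNAs. ESRG had 130, 96 and 121 counts for wild type, 180, 325 and 263 for clone 1 and 725 and 842 for clone 2. In CPM that was 3.087, 2.740 and 2.934, then 5.438, 5.866 and 6.491, then 17.95 and 17.89, so that the 3 groups were far apart. ESRG rose by 1.82 on the log2 scale in the mean of the clones (SE 0.0996, adjusted p = 5.00e-08), by 1.02 in clone 1 (SE 0.109, adjusted p = 3.81e-05) and by 2.61 in clone 2 (SE 0.112, adjusted p = 3.77e-09). The clones differed by 1.59 (SE 0.105, adjusted p = 6.33e-07), clone 2 being higher. No HERV-H or LTR7 row was called between the clones, apart from LTR7Y with no filter on low counts. With all 5 knockout libraries taken as a single group the call of ESRG was lost (1.88, adjusted p = 0.0722). In the single-end pair ESRG had 13 counts in wild type (0.294 CPM) and 80 in the knockout (1.94 CPM).

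LINC00458 stood at 4.321, 4.252 and 4.001 CPM in wild type libraries, 4.562, 6.587 and 5.948 CPM in those of clone 1 and 5.818 and 5.886 CPM in those of clone 2. All knockout libraries lay above wild type, replicate 1 of clone 1 by little. It rose by 0.47 in the mean of the clones (SE 0.122, adjusted p = 0.0177), with 0.45 in clone 1 (adjusted p = 0.0353) and 0.48 in clone 2 (adjusted p = 0.0545). Numbers 1 to 5 alone gave 0.29. The call was lost with a term for the sample number (0.31, adjusted p = 0.123) and with the GC covariate (0.66, adjusted p = 0.159). It was also lost without any 1 of the wild type libraries (adjusted p of 0.0651, 0.0587 and 0.0779) and with scaling on repeat rows alone (adjusted p = 0.184). The call in clone 1 held under 12 of 21 alternatives, and with numbers 1 to 5 alone the value there was 0.12. In the single-end pair LINC00458 had 111 counts in wild type (2.515 CPM) and 275 in the knockout (6.664 CPM). ESRG and LINC00458 were the only 2 of the 9 listed HERV-H derived or LTR7 driven transcripts that passed the filter. LINC-ROR had 1 count in the 8 libraries, LINC01108, UCA1 and C4orf51 had 0, and ABHD12B and HHLA1 had 0 to 3 counts per paired-end library. In the single-end pair ABHD12B had 93 counts in wild type (2.107 CPM) and 65 in the knockout (1.575 CPM), the opposite direction to ESRG and LINC00458. The others of these 6 had 0 to 4. SCGB3A2, a secretoglobin gene listed for an LTR7 driven form, had 2 counts in each wild type library, 4, 5 and 9 in those of clone 1 and 13 and 9 in those of clone 2.

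Of the 10 listed activators of LTR7, 9 were tested, 1 was called higher (11.1%, beside 9.87% of all features) and 2 lower (22.2%, beside 8.09%). POU5F1 (OCT4) stood at 534.8, 509.0 and 559.8 CPM in wild type libraries, 445.2, 446.6 and 467.9 CPM in those of clone 1 and 429.2 and 390.4 CPM in those of clone 2, all knockout libraries below wild type. It fell by 0.31 (SE 0.0514, adjusted p = 0.00103), a call lost with scaling on repeat rows alone (-0.25, adjusted p = 0.870). KLF4, a zinc finger factor of the reprogramming set, averaged 1.998 ± 0.359 CPM in wild type (SD, n = 3), 3.295 ± 0.284 CPM in clone 1 (n = 3) and 2.530 ± 0.0625 CPM over clone 2 (n = 2). It rose by a log2 fold change of 0.53 in the mean of the clones (SE 0.146, adjusted p = 0.0238). In clone 2 alone it was at 0.34 and not called (adjusted p = 0.276), and the call in the mean of the clones was lost with the GC covariate (0.30, adjusted p = 0.669) and with scaling on repeat rows alone (adjusted p = 0.174). It was also lost without wild type replicate 1 (0.41, adjusted p = 0.148), wild type replicate 2 (adjusted p = 0.103) or clone 2 replicate 1 (adjusted p = 0.0635). TFCP2L1, a factor of naive pluripotency, fell by 0.19 (SE 0.0597, adjusted p = 0.0472), at the edge of the threshold, with mean levels of 24.96 CPM (wild type), 19.95 CPM (clone 1) and 24.12 CPM (clone 2), and the call held under 5 of 22 alternatives, the GC covariate (-0.13, adjusted p = 0.634) not among them. SOX2 was at 0.11 (adjusted p = 0.346), or 0.18 with numbers 1 to 5 alone, and changed sign with the GC covariate (-0.25). NANOG had 0 to 3 counts per paired-end library.

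**Figure D5:**
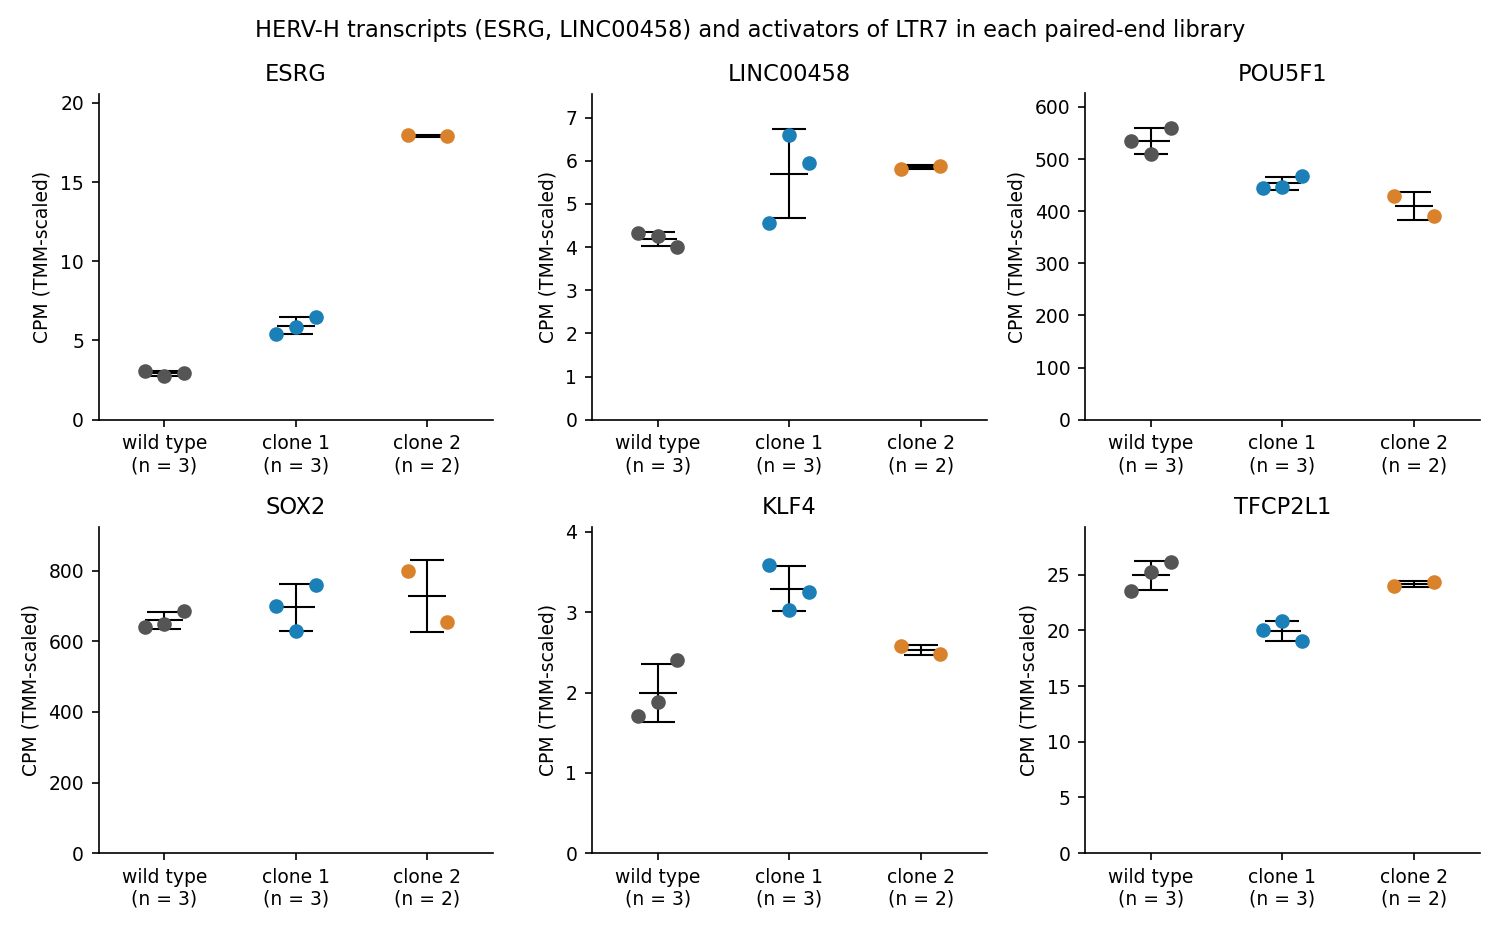
Level of the HERV-H transcripts ESRG and LINC00458 and of 4 activators of LTR7 in the 8 paired-end libraries, as TMM-scaled CPM on axes that start at 0; points are libraries, with the mean and ± SD per group. ESRG separates all 3 groups, with clone 2 near 17.9 CPM, and POU5F1 is lower in every knockout library.

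Of the 24 listed silencers of endogenous retroviruses, 23 were tested, 0 were called higher (beside 9.87% of all features) and 3 lower (13%, beside 8.09%). They were CBX3, a heterochromatin protein gene (-0.23, SE 0.0547, adjusted p = 0.01), CBX5, which encodes another heterochromatin protein (-0.20, SE 0.0587, adjusted p = 0.028), and UHRF1, which recruits DNMT1 to replicated DNA (-0.14, SE 0.0448, adjusted p = 0.0407). Of 22 alternatives, 18 kept the call of CBX3, 16 that of CBX5 and 10 that of UHRF1. The GC covariate ended all 3, at -0.12, -0.14 and -0.16 (adjusted p of 0.643, 0.651 and 0.388). TRIM28, the corepressor bound by KRAB zinc finger proteins, was at 0.06 (adjusted p = 0.415) and SETDB1, its partner histone methyltransferase, at 0.03 (adjusted p = 0.759). CBX3 was called lower in both clones (-0.21 and -0.25), and CBX5 in clone 1 (-0.23) but not in clone 2 (-0.18, adjusted p = 0.145). A term for the sample number gave 7 silencers called lower, in a fit that called 10.1% of all features lower.

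Across the 8 paired-end libraries, log2 CPM of HERVH-int correlated with that of LTR7 (Pearson r = 0.959), LTR7B (0.932), LTR7Y (0.906) and LTR7C (0.781), and less with that of HERVH48-int (0.619). These values describe 8 libraries that differ in genotype, depth and GC trend. The 5 genes with the highest correlation with HERVH-int, among 14891 genes with at least 1 CPM on average, were MAMLD1 (r = 0.994), C1QTNF6 (0.993), MYOF (0.989), TPCN1 (0.987) and AL603832.3 (0.986). MYOF, a membrane repair protein gene of the ferlin family, went from 13.32 CPM in wild type to 37.52 and 36.14 CPM in the clones, and MAMLD1 from 16.51 to 23.26 and 23.80 CPM. Among the other repeat rows the 5 highest were LTR5_Hs (r = 0.943), L1P4e (0.905), MER41G (0.904), HERVE-int (0.889) and Ricksha_c (0.874). Of these, LTR5_Hs, MER41G (0.75, adjusted p = 0.00811), HERVE-int (0.22, adjusted p = 0.024) and Ricksha_c (0.35, adjusted p = 0.0133) were called higher, and L1P4e was not (0.26, adjusted p = 0.149). The calls of MER41G, HERVE-int and Ricksha_c were lost with the sample-number term, at 0.47, 0.13 and 0.19 (adjusted p of 0.0732, 0.163 and 0.09996). Sample numbers 1 to 5 alone gave 0.46, 0.12 and 0.18. The 3 calls held under 18, 14 and 16 of 22 alternatives, and each was lost without wild type replicate 1.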

How the data were processed

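The authors deposited raw read counts for genes and repeat subfamilies, all whole numbers and not normalized. STAR 2.5.2a and hg38 (GRCh38) are the aligner and genome in the submitters' processing notes, and the name of the deposited table gives TEToolkit as the counter. Libraries were made from 65 ng of total RNA with a stranded mRNA kit, per the labels' protocols. The strand setting of the counting, its treatment of reads with several alignments and its annotation are not stated, and reads with several alignments can pass between subfamilies.

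Features were filtered with filterByExpr (20747 kept, 19683 of them genes), scaled with TMM factors and fitted with edgeR (robust quasi-likelihood F test, 1 mean per group, 8 paired-end libraries), with Benjamini-Hochberg adjustment over all of them. Standard errors (SE) were taken as |log2 fold change| over the square root of F. Values with no contrast named compare the mean of the clones with wild type. Single ratios and shares were compared with two-sided exact permutation tests over libraries. These tests pool the knockout libraries of both clones as separate samples, so their p-values do not measure spread between lines. Intervals are exact 95% and cover counting error only. R 4.3.3, edgeR 4.0.16, DESeq2 1.42.0 and limma 3.58.1 were used, and the code was tested on simulated data.

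The rows and gene lists were chosen with earlier results of these data known. Named were all HERV-H and LTR7 rows, RBM4, HERVK-int, LTR5_Hs, L1HS, detected HERV-H transcripts, called activators and silencers, and the 5 genes and 5 repeat rows most correlated with HERVH-int; other names were chosen after their values were seen. The labels do not say whether replicates were separate cultures. P-values therefore reflect only how far these samples spread, and that spread may be technical. Alternatives were other scalings, filters and tools, a replicate block, leaving out each library, and, chosen after seeing the data, the sample number and GC terms.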

Additional observations from a re-analysis of the deposited data

Results flagged for a closer look

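ESRG and KIT stood out because the clones differed from each other in the direct test of clone 2 against clone 1. ESRG was higher in clone 2 by 1.59 on the log2 scale (edgeR adjusted p = 6.33e-07), with 1.02 in clone 1 and 2.61 in clone 2 against wild type. KIT, the stem cell factor receptor, was lower in clone 2 (log2 fold change against clone 1 -0.47, edgeR adjusted p = 0.0387), with -0.66 in clone 1 and -1.13 in clone 2 against wild type. Groups of 3, 3 and 2 libraries were too small to look for single outlying libraries.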

How the results depend on the processing

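Of the 22 alternatives for the mean of the clones, LTR7Y kept its call in 22, HERVH-int and LTR7 in 21 and LTR7B in 19. Counts over alternatives include numbers 1 to 5 alone, a fit with only 1 library of each clone. Scaling on the repeat rows alone gave 0.64 for HERVH-int, 0.46 for LTR7 and 0.37 for LTR7B in the mean of the clones, 0.59 for LTR7 and 0.47 for LTR7B in clone 1, and 0.49 for HERVH-int, 0.34 for LTR7, 0.27 for LTR7B and 0.68 for LTR7Y in clone 2, none called. It left 1 HERV-H row called in the mean of the clones, 2 in clone 1 and 0 in clone 2. It also gave 4 other ERV1 rows called higher and 0 lower, 1 HERV-H derived transcript higher, 0 activators in either direction and 0 silencers lower. That scaling called 3.08% of all features higher and 1.12% lower, against 9.87% and 8.09% with scaling on genes and repeats together. With the GC covariate LTR7 in clone 1 (0.43) and LTR7B in the mean of the clones (0.35), clone 1 (0.31) and clone 2 (0.38) were not called, and 2 rows stayed called in clone 1. That fit called 607 features, 1.52% of all features being called higher and 1.41% lower. It called 1 other ERV1 row higher and 0 lower, 1 HERV-H derived transcript, 0 activators higher and 1 lower, and 0 silencers lower. LTR7B in clone 1 was not called with the sample-number term (0.24) or numbers 1 to 5 alone (0.23), nor in clone 2 with the latter (0.32). Both sample-number fits gave 4 other ERV1 rows higher, 11 (term) and 14 (numbers 1 to 5) lower, 1 HERV-H derived transcript higher and 7 silencers lower. They called 9.62% (term) and 11.1% (numbers 1 to 5) of all features higher, and 10.1% and 12.6% lower. Numbers 1 to 5 alone gave 2 activators higher, as did total counts (11.7% of all features higher), upper quartile factors (11.2%) and the replicate block (11%). Only 1 activator was lower with total counts (6.65% of all features lower), upper quartile factors (7.03%), no filter (5.49%) and DESeq2 (7.69%). The same held with limma voom (8.06%), all knockout libraries as a group (7.22%) and the replicate block (9.52%). Total counts gave 1 silencer lower, and all knockout libraries as a group gave 5 other ERV1 rows and 1 HERV-H derived transcript higher. The latter fit called 8.91% of all features higher.

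Whether replicate numbers pair the samples is not stated in the labels. Deviations from the group means correlated at 0.25 and 0.20 for same-numbered libraries of the clones, and at -0.25 to 0.10 for differently numbered ones. Between wild type and a clone the values were -0.23 to 0.05 for same-numbered and -0.14 to 0.18 for differently numbered libraries. With only 2 libraries in clone 2, their deviations mirror each other, so these values are not independent. With the replicate block HERVH-int was at 0.58 (adjusted p = 2.96e-05), and 4248 features were called against 3725. HERVK-int, at 0.57, was called with the block (0.58, adjusted p = 6.31e-05), total counts, upper quartile factors, at least 10 counts in every library, DESeq2, limma voom and the sample-number term (0.24), and without clone 1 replicate 1.

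Leaving out each library in turn gave 0.55 to 0.60 for HERVH-int, 0.36 to 0.44 for LTR7, 0.878 to 1.08 for LTR7Y and 0.24 to 0.34 for LTR7B in the mean of the clones. LTR7B ran from 0.20 to 0.30 in clone 1, its call lost without any wild type library or without clone 1 replicate 2 or 3, and from 0.28 to 0.38 in clone 2, lost without wild type replicate 2 or either clone 2 library. Other ERV1 rows called numbered 3 to 17 higher and 0 to 3 lower, HERV-H derived transcripts 1 to 2, activators 0 to 2 higher and 1 to 2 lower, and silencers 0 to 4 lower. Over the same fits, 5.1% to 9.89% of all features were called higher and 3.87% to 10.7% lower. The difference in the share of repeat counts ran from 0.456 to 0.628 percentage points (exact permutation p up to 0.0952), and that in the LTR7Y share from 6.40 to 8.75. Features called numbered 1847 without wild type replicate 1, 2217 without wild type replicate 2 and 2443 without wild type replicate 3, and 2494 to 4251 without a knockout library.

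Signs turned only in values that were not called. Clone 2 against clone 1 turned for HERVH-int with single libraries left out (-0.0749 to 0.0463, above 0 without clone 1 replicate 2 or clone 2 replicate 1), with the sample-number term (0.0059) and with numbers 1 to 5 (0.0568). It turned with scaling on repeat rows for LTR7 (-0.25), LTR7B (-0.20), LTR7C (-0.0574) and LINC00458 (-0.23), for LTR7 without clone 1 replicate 1 or clone 2 replicate 2 (range over left-out libraries -0.0422 to 0.1085), and for LINC00458 without clone 1 replicate 1 (range -0.1015 to 0.1495). HERVH48-int in clone 2 turned with scaling on repeat rows (-0.0341), without clone 2 replicate 2 (range -0.0097 to 0.1221), with the sample-number term (-0.0324) and with numbers 1 to 5 (-0.0081). SOX2 turned with the GC covariate (-0.25), and L1HS with scaling on repeat rows (0.0311) and without wild type replicate 2 (range -0.1347 to 0.0605). HERVH-int against the row LTR7 alone gave a log2 ratio difference of 0.18, past the threshold. The cause was not tested for any of these changes. LTR7A and 7 of the 9 HERV-H derived transcripts had too few counts in the paired-end libraries for a comparison.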
